A study of Mus musculus with 20 samples.

Results

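The 31 genes described here are 20 mouse semaphorins of classes 3 to 7, the 9 plexins and the 2 neuropilins. They were taken by Ensembl identifier from the 37620 genes listed, and all 31 were found. RNA was measured in sensory neurons sorted from dorsal root ganglia (DRG) of homozygous Trpv1tm2Bbm mice aged 6 to 8 weeks (Trpv1PLAP-nLacZ, B6.129-Trpv1tm2Bbm/J in the study's methods), a knock-in strain in which the Trpv1 locus drives placental alkaline phosphatase and nuclear lacZ reporters, so that sorting relied on the fluorescence of cells with reporter activity. Each of 5 male and 5 female donors gave a lumbar (L4-5) and a sacral (L6-S1) library, which makes 10 libraries per level and 20 in all. The 4 groups are male lumbar, male sacral, female lumbar and female sacral, with 5 libraries in each. All groups carry the same allele, and the labels give no treatment. The study's methods count as many mice of each sex as there are donors. Each donor label, however, holds 2 animal numbers, and whether cells were pooled was not stated in the sources used here. The question the design addresses is which genes differ between neurons of the sacral ganglia, which include those that supply the pelvic organs, and neurons of the lumbar ganglia.

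Semaphorins are guidance cues that steer growing axons and cells, mostly by repulsion. The class 3 proteins are secreted, those of classes 4 to 6 span the membrane, and Sema7a is held to the membrane by a lipid anchor. Plexins are the receptors that carry the signal into the cell. Most class 3 semaphorins bind neuropilins, which have short cytoplasmic tails and signal through plexins of the A type. Sema3e is the exception, since it binds Plxnd1 directly. Class 4 semaphorins mainly bind plexins of the B type, class 6 semaphorins bind A-type plexins, and Sema7a binds Plxnc1 and integrins. In the peripheral nervous system these genes are known from the guidance and branching of sensory axons, and several remain active in adult ganglia.

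The reads worked back from the deposited values numbered 44044435 to 66679135 per library on genes, and 20720 to 22507 genes had a value in a library. Values are given as log2 RPKM, in which reads are divided by exon length and by a scaling factor of each library before the log is taken. These factors differ from the total reads and leave all libraries with the same median of 0.93. Division by length means that levels can be compared between genes. Trpv1 itself, on which the sort relied, had 3.74 ± 0.41 in lumbar and 4.70 ± 0.35 in sacral libraries (mean ± SD, n = 10 each). Its difference, lumbar minus sacral, was -0.96 ± 0.15 (SE, adjusted p = 3.6e-05). Among other markers of Trpv1 nociceptors, Gfra3 (-0.72 ± 0.15) was called towards sacral as well, whereas the peptide genes Calca (0.16 ± 0.09) and Tac1 (-0.10 ± 0.08) were not called. Of 5 tested markers of large myelinated neurons, Pvalb (2.11 ± 0.59) and Spp1 (1.3 ± 0.25) were higher in lumbar libraries, and the summed level was 33.7 to 84.7 RPKM there and 31.1 to 54.6 RPKM in sacral libraries. The median of this sum was 45.7 RPKM in lumbar and 44.5 RPKM in sacral libraries, and 5 of 10 donors had the higher sum in lumbar. Markers of other cells moved with level too. All 8 satellite glia markers were higher in lumbar libraries, and their summed level was 1170 to 2710 RPKM there and 607 to 1250 RPKM in sacral libraries. Of 10 myelinating Schwann cell markers, 8 were higher in lumbar libraries, with summed levels of 826 to 1800 and 767 to 1310 RPKM. All 10 markers of neurons, of which Scn9a (-1.06), Scn10a (-0.94) and Prph (-0.71) mark mainly small neurons, were higher in sacral libraries (1250 to 2140 RPKM in lumbar, 2060 to 2640 RPKM in sacral). Of the endothelial markers, 8 of 8 were higher in lumbar libraries (11.7 to 84.1 against 8.75 to 41.8 RPKM), as were 3 of 5 tested macrophage markers (3.85 to 18.7 against 2.16 to 5.23 RPKM), 4 of 5 red blood cell markers (1.14 to 16.8 against 0.523 to 6.95 RPKM) and 5 of 7 fibroblast markers (72.3 to 327 against 78.7 to 180 RPKM). The summed fibroblast level, however, had a median of 103 RPKM in lumbar and 122 RPKM in sacral libraries, and was higher in lumbar in 4 of 10 donors. Of the 6 tested mural cell markers, 3 were higher in lumbar and 1 in sacral libraries (90.1 to 171 against 92.5 to 194 RPKM). No marker on these lists was without reads in all libraries. Differences are therefore given as differences between libraries, and their part from neurons and from other cells was not tested. In bulk RNA, fewer cells of a type and less RNA per cell cannot be told apart.

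Of the 31 genes, 28 passed the filter on low values (a mean log2 RPKM above -1 in at least 1 group). Between the levels, 20 of the 28 were called at an adjusted p of at most 0.05, which is 71.4% against 45.6% of the 16304 genes tested. Of these, 11 were higher in sacral libraries (39.3%, against 30.3% of all genes) and 9 were higher in lumbar libraries (32.1%, against 15.3% of all genes). The split depended on the scaling and on the markers of glia: 18 members were called towards sacral and 7 towards lumbar under voom with total reads, 9 and 9 under voom with TMM scaling, and 1 and 0 with the mean of glial markers as a covariate. Of the 16422 genes tested under voom, 9517 were called towards sacral and 1433 towards lumbar with total reads, and 3256 and 3718 with TMM scaling. With the covariate, 180 and 33 of the 16304 genes were called in these directions. Of all called genes, 66.5% were higher in sacral libraries on the deposited scale, 86.9% under total reads, 46.7% under TMM scaling and 52.8% under quantile normalisation. With the stricter filter (a mean log2 RPKM above 1 in at least 1 group), 18 of 22 members were called, beside 6393 of 11469 genes. Members were chosen with earlier results of these data known, so these shares are a description. The median difference of the 28, lumbar minus sacral, was -0.21, and that of all genes tested was -0.11. The sacral genes were Sema3c, Sema3d, Sema3e, Sema4d, Sema4f, Sema6d, Plxna2, Plxna3, Plxna4, Plxnc1 and Nrp2. The lumbar genes were Sema3b, Sema3g, Sema4a, Sema4g, Sema6a, Sema7a, Plxnb1, Plxnb2 and Plxnb3. Of the 28 tested members, 13 were called with all 10 donors in the called direction, 8 towards sacral and 5 towards lumbar. Among all genes tested, 19.7% were called with all 10 donors in 1 direction, or 3215 of the 7436 called genes. The libraries of both levels overlapped in range for every tested gene of the family except Sema6d. Over genes with a value in every library, 1.71% had levels that did not overlap.

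**Figure D1:**
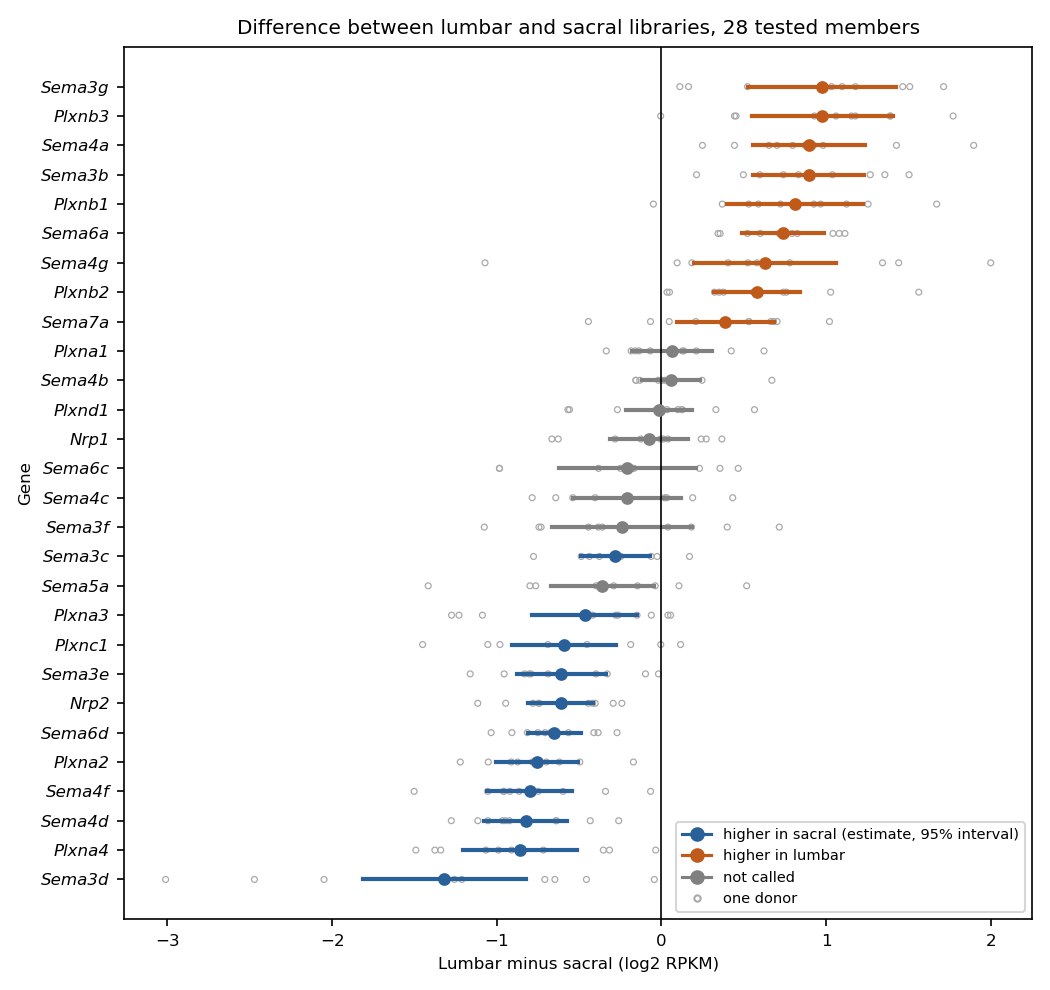
Difference in log2 RPKM between lumbar and sacral libraries (x axis, lumbar minus sacral) for the 28 tested genes (y axis). Filled points are the fitted differences, bars their 95% intervals and open circles the 10 donors. Sema3d lies farthest to the sacral side (-1.32), Sema3g and Plxnb3 farthest to the lumbar side (0.98 each), and the A-type and B-type plexins lie on opposite sides apart from Plxna1.

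**Figure D2:**
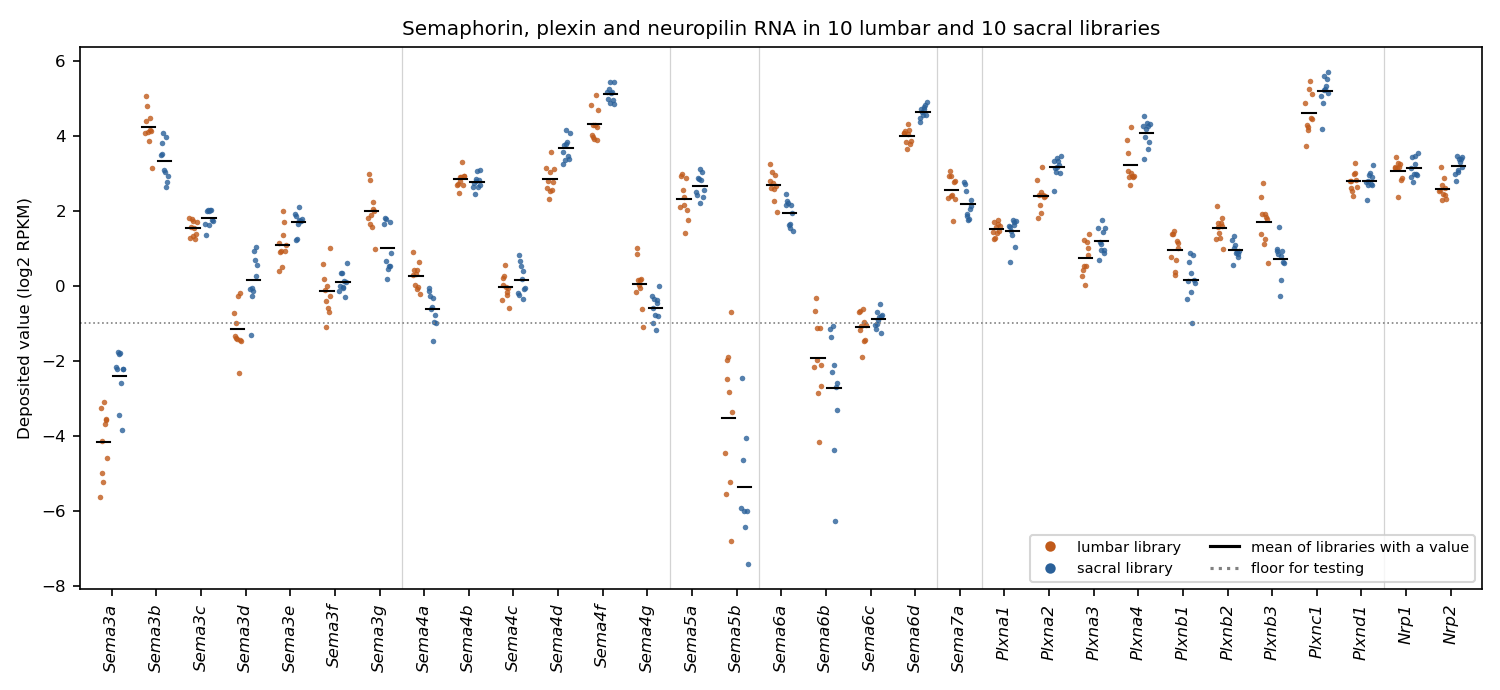
Deposited log2 RPKM (y axis) of the 31 genes (x axis) in every library, lumbar in orange and sacral in blue, with the mean of the libraries that have a value as a black bar. The dotted line is the floor of -1 used for testing. Plxnc1, Sema4f and Sema6d were the highest genes, and Sema3a, Sema5b and Sema6b had group means below the floor, with single libraries of Sema5b and Sema6b above it.

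The sequences before the start sites of 5 genes are shown as examples of both directions. They are the semaphorins with the largest difference towards sacral (Sema3d) and towards lumbar (Sema3g), the plexin with the largest lumbar difference (Plxnb3), Plxna2, and Sema6d, the gene whose levels did not overlap. Plxna2 had the largest sacral difference of the plexins after Plxna4, for which no entry was matched. Each is the 250 bases upstream of a RefSeq start (table of build GRCm38.p6). Sema6d has 2 such starts, and the one shown is at the start of its gene model. Each was matched exactly in the NCBIM37 (mm9) genome, the build of the study, and its coordinates there are given. The search covered only the chromosome and strand of the gene, where each window occurred once. All 5 lie on the plus strand. Capitals mark matches on either strand to GGGCGG (a GC box), ACAAAG (a core of SOX factor sites), TAATTA (a core of homeodomain sites) and CAGCTG (an E-box).
Sema3d, chr5:12382916-12383165: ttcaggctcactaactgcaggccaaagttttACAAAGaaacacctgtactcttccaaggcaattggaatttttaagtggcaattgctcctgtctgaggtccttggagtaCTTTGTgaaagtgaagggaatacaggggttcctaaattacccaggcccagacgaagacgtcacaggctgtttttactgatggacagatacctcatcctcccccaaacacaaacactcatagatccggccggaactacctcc
Plxna2, chr1:196445773-196446022: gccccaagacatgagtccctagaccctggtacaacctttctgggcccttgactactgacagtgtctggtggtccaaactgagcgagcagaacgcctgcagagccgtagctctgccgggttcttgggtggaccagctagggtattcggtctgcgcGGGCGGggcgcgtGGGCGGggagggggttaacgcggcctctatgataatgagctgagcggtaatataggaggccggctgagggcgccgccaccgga
Sema6d, chr2:123915455-123915704: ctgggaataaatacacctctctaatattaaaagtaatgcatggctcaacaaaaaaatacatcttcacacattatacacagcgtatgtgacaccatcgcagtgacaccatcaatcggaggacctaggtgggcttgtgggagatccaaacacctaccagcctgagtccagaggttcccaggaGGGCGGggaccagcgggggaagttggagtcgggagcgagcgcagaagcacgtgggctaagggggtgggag
Sema3g, chr14:32030809-32031058: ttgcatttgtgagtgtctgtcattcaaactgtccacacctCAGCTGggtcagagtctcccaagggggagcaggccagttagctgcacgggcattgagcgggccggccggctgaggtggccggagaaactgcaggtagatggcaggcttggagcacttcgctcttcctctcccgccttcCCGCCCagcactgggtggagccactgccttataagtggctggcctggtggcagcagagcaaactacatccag
Plxnb3, chrX:71002192-71002441: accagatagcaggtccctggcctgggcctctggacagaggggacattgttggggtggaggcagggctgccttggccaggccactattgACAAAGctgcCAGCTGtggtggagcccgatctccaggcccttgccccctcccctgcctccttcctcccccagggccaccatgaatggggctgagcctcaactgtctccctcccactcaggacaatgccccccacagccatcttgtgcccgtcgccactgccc
The Sema3d window held 2 matches to ACAAAG and no GC box, and the Plxna2 window held 2 GC boxes. The Sema6d window shown held 1 GC box, and the other one, at chr2:124479067-124479316, held no GC box and 1 ACAAAG match. The Sema3g window held 1 GC box and 1 E-box, and the Plxnb3 window held 1 ACAAAG match and 1 E-box. In all, 26 of the 31 genes had 37 entries. GGGCGG was found in 8 of the 13 windows of genes higher in sacral libraries and in 9 of the 11 windows of genes higher in lumbar libraries, and also in 10 of the 13 windows of members that were not called or not tested. It was in 33.0% of the 32536 windows of all genes. In the same order, ACAAAG was found in 3, 1 and 1 of them (16.5% of all), CAGCTG in 1, 4 and 1 (13.1% of all) and TAATTA in none (4.84% of all). Windows of 1 gene overlap or share a gene, so these counts are a description.

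Among the secreted class 3 semaphorins, 3 of the 6 tested were higher in sacral and 2 in lumbar libraries. Sema3d (ENSMUSG00000040254), a secreted ligand of neuropilins, lies at chr5:12383166-12588943 on the plus strand. Its level was lowest at -2.32, -1.37 in the median and -0.20 at most in lumbar libraries, and -1.31, 0.10 and 1.02 in sacral libraries. Its sacral libraries held 161 to 761 reads and its lumbar ones 82 to 286, and all 10 donors had more in the sacral library. The ranges overlapped only through a few libraries, with 4 lumbar values above the lowest sacral value and 2 sacral values below the highest lumbar one. The difference was -1.32 ± 0.24 (SE, adjusted p = 0.00017), a level 2.49-fold higher in sacral libraries and the largest difference among the 28 tested genes on the deposited scale. With 1 RPKM added before the log it was -0.56, smaller in size than, among others, those of Sema3b (0.83), Plxna4 (-0.79), Sema4f (-0.77), Sema4d (-0.74) and Sema3g (0.71).

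Sema3e (ENSMUSG00000063531), the ligand of Plxnd1, ran from 0.39 through a median of 1.0 to 1.99 in lumbar libraries. It ran from 1.22 through 1.74 to 2.09 in sacral ones. All 10 donors had the higher value in the sacral library, by between 0.02 and 1.16, and the fitted difference was -0.61 ± 0.13 (adjusted p = 0.00076). Sema3c was also higher in sacral libraries, with a smaller difference of -0.28 ± 0.10 (adjusted p = 0.027) seen in 9 of 10 donors. It was not called under quantile normalisation (-0.22, adjusted p = 0.077) or under voom with TMM scaling (-0.14, adjusted p = 0.22).

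Sema3b (ENSMUSG00000057969, chr9:107500005-107511560, minus strand) had the highest level of class 3. Its lumbar libraries ran from 3.14 through a median of 4.14 to 5.06, and its sacral libraries from 2.64 through 3.28 to 4.06. The lumbar value was the higher in all 10 donors, with a difference of 0.89 ± 0.16 (adjusted p = 0.0002), or 1.86-fold. Sema3g (ENSMUSG00000021904, chr14:32031046-32043536, plus strand), a secreted ligand of Nrp2, ran from 0.97 through 1.94 to 2.99 in lumbar and from 0.18 through 0.76 to 1.81 in sacral libraries. Again all 10 donors had more in the lumbar library, and the difference of 0.98 ± 0.22 (adjusted p = 0.0011) was 1.97-fold. Sema3f, a ligand of Nrp2, was not called (-0.24, 95% interval -0.66 to 0.18), but was called towards sacral under voom with total reads (-0.548, adjusted p = 0.015).

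Sema3a, the ligand through which Nrp1 was defined as a guidance receptor, had the lowest level of class 3 and did not pass the filter. It had 10 to 46 reads in lumbar and 45 to 168 reads in sacral libraries. Its level ran from -5.65 through -3.92 to -3.10 in lumbar and from -3.84 through -2.22 to -1.76 in sacral libraries, and 9 of 10 donors had more in the sacral library. In a fit without the filter, in which 38.6% of 19612 genes were called, its difference was -1.78 ± 0.35 (adjusted p = 0.00047). The other members below the filter, Sema5b (1.89 ± 0.80, adjusted p = 0.068) and Sema6b (0.80 ± 0.41, adjusted p = 0.13), were not called in that fit.

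The class 4 semaphorins, which span the membrane, were split as well, with 2 of 6 higher in sacral and 2 in lumbar libraries. Sema4f (ENSMUSG00000000627, chr6:82861879-82889763, minus strand) had the highest level of all semaphorins. It ran from 3.89 through 4.26 to 5.09 in lumbar and from 4.83 through 5.15 to 5.42 in sacral libraries, with 2929 to 14813 reads. Of the lumbar libraries, 1 reached into the sacral range, that of female donor 2. All 10 donors had more in the sacral library, and the difference was -0.80 ± 0.12 (adjusted p = 4.4e-05). Sema4d (ENSMUSG00000021451), the ligand of Plxnb1, ran from 2.31 through 2.77 to 3.56 in lumbar and from 3.25 through 3.66 to 4.15 in sacral libraries. Here too 1 lumbar library, that of female donor 2, lay within the sacral range. The difference was -0.82 ± 0.12 (adjusted p = 2.6e-05), in the same direction in all 10 donors.

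Sema4a (ENSMUSG00000028064), best known from immune cells and the retina, went the other way. It ran from -0.21 through 0.30 to 0.91 in lumbar and from -1.47 through -0.59 to -0.08 in sacral libraries. The difference was 0.89 ± 0.16 (adjusted p = 0.0002), with all 10 donors higher in the lumbar library and 115 to 430 reads per library. Sema4g (ENSMUSG00000025207) had the lowest mean level of class 4. It ran from -1.09 through 0.08 to 0.99 in lumbar and from -1.19 through -0.53 to -0.02 in sacral libraries. Its difference of 0.63 ± 0.21 (adjusted p = 0.018) held in 9 of 10 donors, and the remaining donor went the other way by 1.07. The call was lost under quantile normalisation (0.522, adjusted p = 0.055) and under voom with total reads (0.295, adjusted p = 0.14). Sema4b and Sema4c were not called, with differences of 0.06 (95% interval -0.12 to 0.23) and -0.21 (-0.54 to 0.12). Under voom with total reads Sema4c was called towards sacral (-0.538, adjusted p = 0.0028). The direction of Sema4b depended on the scaling: it was called towards lumbar under quantile normalisation (0.22, adjusted p = 0.029) and towards sacral under voom with total reads (-0.265, adjusted p = 0.034).

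Of class 6, whose members bind A-type plexins, Sema6d was higher in sacral and Sema6a in lumbar libraries. Sema6d (ENSMUSG00000027200, chr2:123915705-124493506, plus strand) ran from 3.63 through 4.06 to 4.31 in lumbar libraries and from 4.35 through 4.67 to 4.89 in sacral ones. Every sacral library was above every lumbar library. It had 4927 to 21028 reads and the smallest error of the called members, with a difference of -0.65 ± 0.08 (adjusted p = 3.3e-06). Sema6a (ENSMUSG00000019647, chromosome 18) ran from 1.97 through 2.69 to 3.24 in lumbar and from 1.44 through 2.04 to 2.44 in sacral libraries. All 10 donors had more in the lumbar library, and the difference was 0.74 ± 0.12 (adjusted p = 6.3e-05). Sema6c was not called (-0.21, 95% interval -0.62 to 0.21), but was called towards sacral under voom with total reads (-0.52, adjusted p = 0.0052). Sema6b, at 3 to 138 reads per library, did not pass the filter.

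Class 5 semaphorins carry thrombospondin repeats. Sema5a ran from 1.41 through 2.25 to 2.97 in lumbar and from 2.19 through 2.69 to 3.12 in sacral libraries. Its difference of -0.36 ± 0.15 missed the threshold (adjusted p = 0.057), with 8 of 10 donors higher in the sacral library. It was called under voom with total reads (-0.682, adjusted p = 7.0e-05), with the stricter filter (adjusted p = 0.041), with donor as a fixed block (adjusted p = 0.03) and in female donors alone (-0.697, adjusted p = 0.038). Sema5b had 3 to 157 reads in lumbar and 0 to 74 in sacral libraries, with no read in 2 of the sacral libraries, and did not pass the filter. Sema7a, the ligand of Plxnc1, was higher in lumbar libraries by 0.39 ± 0.14 (adjusted p = 0.03) in 8 of 10 donors, but by 0.06 (adjusted p = 0.66) under voom with total reads.

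The called plexins differed in direction by type, though the types were not compared in a test. Of all genes tested, 30.3% were called towards sacral and 15.3% towards lumbar. Of the 4 A-type plexins, 3 were higher in sacral libraries, as was Plxnc1, and all 3 B-type plexins were higher in lumbar libraries. These directions were the same under quantile normalisation and under voom with TMM or total-read scaling, although Plxna3 was not called under TMM scaling (-0.32, adjusted p = 0.064). With a mean of glial markers as a covariate no plexin was called, and Plxnb3 (-0.03) and Plxnc1 (0.03) changed sign. Plxnd1 (-0.01, 95% interval -0.22 to 0.19) and Plxna1 (0.06, -0.18 to 0.30) were not called, but Plxnd1 was called towards sacral under voom with total reads (-0.337, adjusted p = 0.0072).

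Plxna4 (ENSMUSG00000029765, chr6:32094565-32538192, minus strand), which carries Sema3a and Sema6 signals in sensory axons, ran from 2.67 through 2.97 to 4.23 in lumbar libraries. It ran from 3.38 through 4.21 to 4.53 in sacral libraries. The highest lumbar value was that of female donor 2, whose libraries hardly differed (by 0.03), and the other 4 female lumbar libraries lay between 2.91 and 3.0. The difference was -0.86 ± 0.17 (adjusted p = 0.00035), or 1.81-fold, in the same direction in all 10 donors. Plxna2 (ENSMUSG00000026640) ran from 1.79 through 2.41 to 3.16 in lumbar and from 2.53 through 3.19 to 3.45 in sacral libraries, with a difference of -0.76 ± 0.12 (adjusted p = 5.0e-05) in all 10 donors. Plxna3 had the smallest difference of the called A-type plexins, at -0.47 ± 0.15 (adjusted p = 0.017), and 8 of 10 donors had more in the sacral library. The exons of Plxna4 overlap the opposite-strand gene Gm13851, those of Plxna1 overlap Gm16896 and those of Plxnb1 overlap Gm7628. The study made double-stranded cDNA before library preparation, and counting by strand was not given in the sources used here. Reads of these partners therefore cannot be told apart. Of the neuropilins, the exons of Nrp1 overlap Mir1903 on the same strand.

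Plxnc1 (ENSMUSG00000074785, chr10:94253617-94407212, minus strand), the receptor of Sema7a, had the highest level of all 31 genes. It ran from 3.73 through 4.45 to 5.45 in lumbar and from 4.18 through 5.23 to 5.71 in sacral libraries. The ranges overlapped widely, with 8 lumbar libraries inside the sacral range. The difference was -0.59 ± 0.15 (adjusted p = 0.0035), and 9 of 10 donors had more in the sacral library. Its ligand Sema7a differed in the opposite direction, a call that did not hold when libraries were scaled to total reads.

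Plxnb3 (ENSMUSG00000031385, chrX:71002429-71017853, plus strand), a receptor of Sema5a, ran from 0.60 through 1.81 to 2.73 in lumbar and from -0.28 through 0.82 to 1.55 in sacral libraries. The difference was 0.98 ± 0.21 (adjusted p = 0.00072), or 1.97-fold, in 9 of 10 donors, and the remaining donor had equal values to within 0.005. Plxnb1 (ENSMUSG00000053646), the Sema4d receptor, had the lowest mean level of the plexins. It ran from 0.29 through 1.06 to 1.46 in lumbar and from -0.99 through 0.14 to 0.87 in sacral libraries, with a difference of 0.81 ± 0.20 (adjusted p = 0.0023) in 9 of 10 donors. Plxnb2 (ENSMUSG00000036606), a receptor of Sema4c, ran from 0.98 through 1.58 to 2.13 in lumbar and from 0.56 through 0.92 to 1.33 in sacral libraries. All 10 donors had more in the lumbar library, and the difference was 0.58 ± 0.13 (adjusted p = 0.00089). Sema4d and Plxnb1, a ligand and its receptor, differed in opposite directions.

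**Figure D3:**
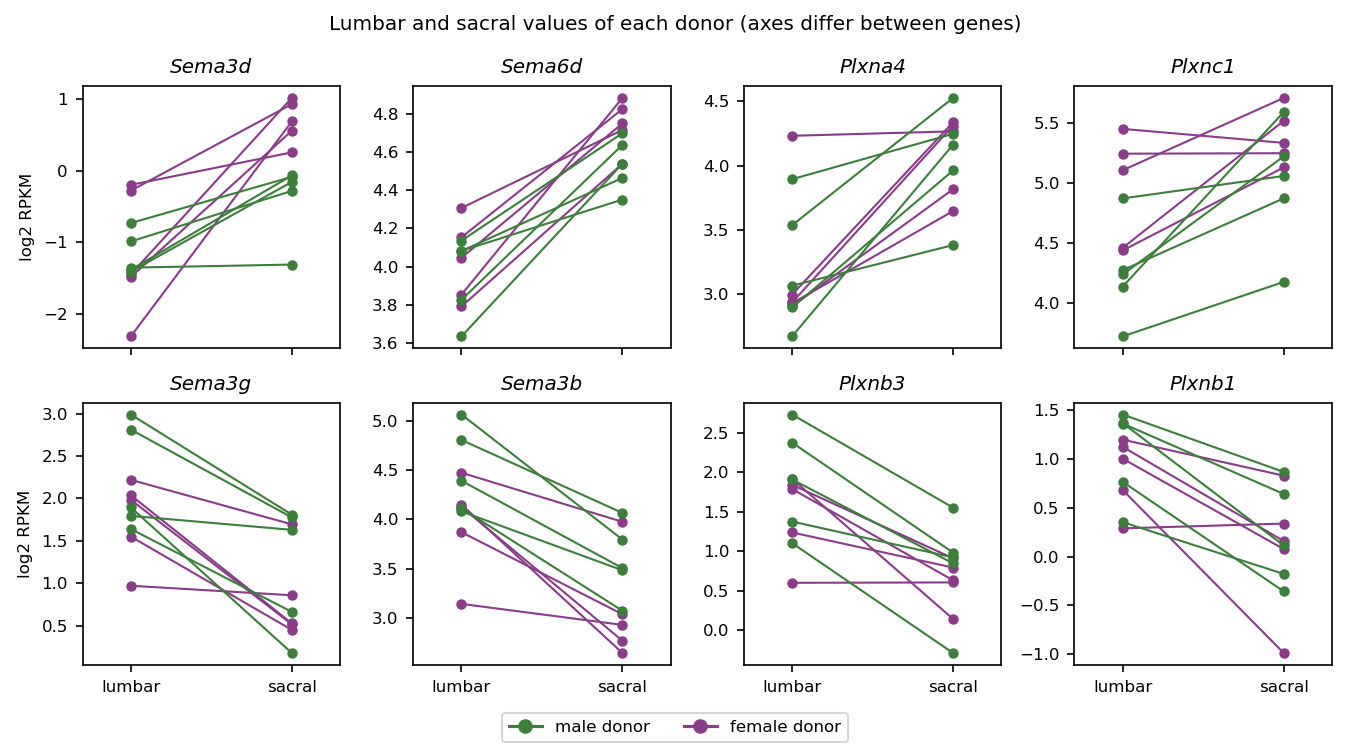
Lumbar and sacral log2 RPKM (y axis, scaled per gene) of each donor for 8 genes, with a line joining both libraries of a donor, males in green and females in purple. The lines of Sema3d, Sema6d and Plxna4 rise in all 10 donors and those of Plxnc1 in 9, and the lines of Sema3g and Sema3b fall in all 10 and those of Plxnb3 and Plxnb1 in 9.

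Within the summed plexin RPKM of a library, Plxnc1 had the largest share, 41.2% ± 8.31 in lumbar and 46.0% ± 5.67 in sacral libraries (SD, n = 10). Plxna4 followed with 15.8% ± 3.65 and 21.4% ± 3.88, and its share was higher in the sacral library of all 10 donors. The share of Plxna2 was 8.86% ± 0.852 in lumbar and 11.2% ± 0.89 in sacral libraries, also higher in sacral libraries of all 10 donors. Plxna3 held 2.88% ± 0.794 and 2.93% ± 0.568, higher in the sacral library of 5 of 10 donors, and Plxna1 held 4.86% ± 0.994 and 3.44% ± 0.388, higher in 1 of 10. The B-type shares were lower in every sacral library than in the lumbar library of the same donor. Plxnb3 took 6.10% ± 3.30 in lumbar and 2.26% ± 1.02 in sacral libraries, Plxnb2 took 5.14% ± 1.93 and 2.47% ± 0.456, and Plxnb1 took 3.51% ± 1.33 and 1.52% ± 0.62. The share of Plxnd1 was also lower in the sacral library of all 10 donors (11.6% ± 1.46 and 8.76% ± 0.718), although its level did not differ past the threshold. Shares of 1 sum move against each other and do not depend on how libraries were scaled. Among semaphorins, Sema4f held 19.9% ± 5.80 of the summed RPKM in lumbar and 29.0% ± 3.37 in sacral libraries, and Sema3b held 18.7% ± 5.21 and 8.82% ± 3.15. Sema6d held 15.4% ± 1.45 and 20.8% ± 1.69.

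**Figure D4:**
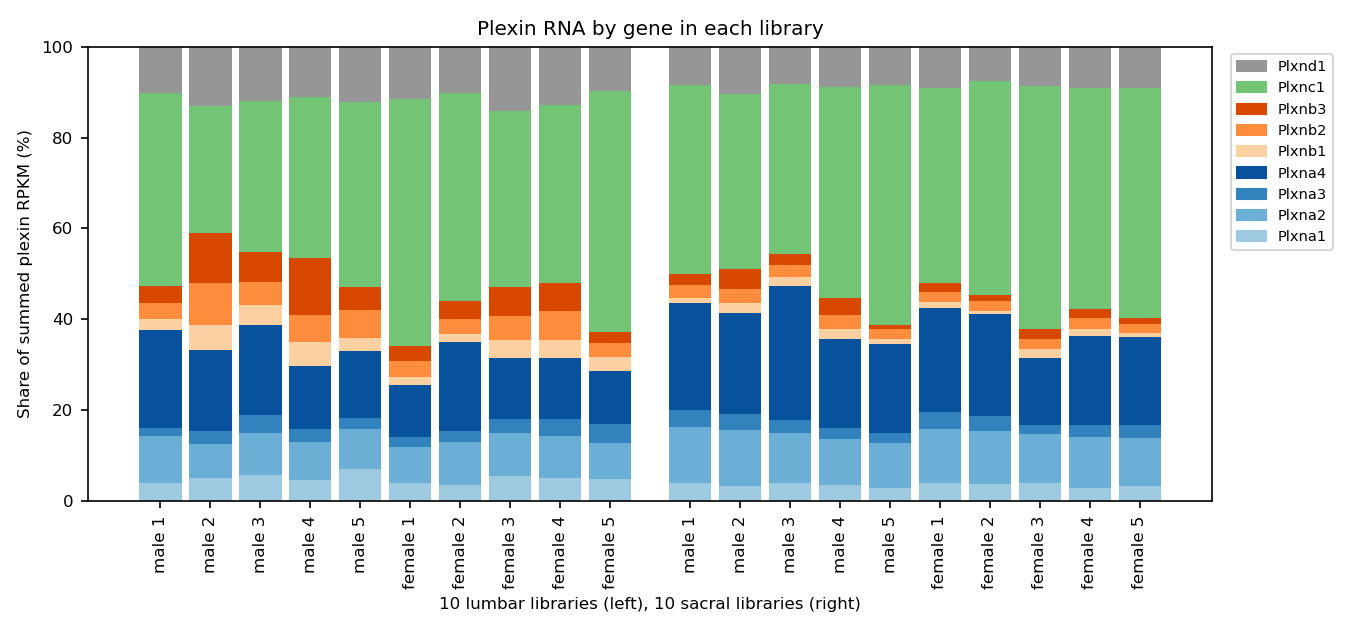
Share of each plexin in the summed plexin RPKM (y axis, percent) of every library (x axis), lumbar on the left and sacral on the right. Plxnc1 (green) takes the largest share, and the B-type plexins (orange) take a smaller share in the sacral than in the lumbar library of each donor.

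Of the neuropilins, the co-receptors of class 3 semaphorins, Nrp2 was higher in sacral libraries and Nrp1 was not called, although under voom with total reads Nrp1 was called towards sacral as well (-0.399, adjusted p = 0.0041). Nrp2 (ENSMUSG00000025969, chr1:62749859-62865269, plus strand) ran from 2.29 through 2.54 to 3.16 in lumbar and from 2.78 through 3.23 to 3.45 in sacral libraries. Its difference was -0.61 ± 0.09 (adjusted p = 4.2e-05), and all 10 donors had more in the sacral library. Nrp1 ran from 2.36 through 3.16 to 3.44 in lumbar and from 2.76 through 3.06 to 3.54 in sacral libraries, and 5 of 10 donors went each way. The interval of its difference was -0.32 to 0.16 around -0.08.

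Of 42 genes listed as partners of semaphorin signalling, 41 were matched and 39 tested. In sacral libraries 16 were higher and in lumbar libraries 8, and 15 were not called, so that 24 of 39 were called, beside 45.6% of all genes (30.3% towards sacral and 15.3% towards lumbar). With the mean of glial markers as a covariate no partner was called. The median difference of the partners was -0.15, beside -0.11 for all genes. The called partners with the largest sacral differences were Cntn2 (-1.02 ± 0.12), an axonal adhesion molecule, L1cam (-0.96 ± 0.14), a co-receptor of Nrp1 for Sema3a, and Mst1r (-0.78 ± 0.20), a receptor kinase that couples to B-type plexins. The called partners with the largest lumbar differences were Itga1 (1.10 ± 0.20), an integrin subunit that pairs with Itgb1 to bind Sema7a, Erbb2 (1.10 ± 0.23), a receptor kinase that couples to Plxnb1, and Dpysl4 (0.89 ± 0.15). Vegfc had a difference of 0.94 ± 0.38 that missed the threshold (adjusted p = 0.051). The collapsin response mediators Crmp1 (-0.59 ± 0.11), Dpysl2 (-0.45 ± 0.10), Dpysl3 (-0.66 ± 0.12) and Dpysl5 (-0.57 ± 0.09), which act downstream of Sema3a, were higher in sacral libraries, whereas Dpysl4 of the same family was higher in lumbar libraries.

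Several members are neighbours. On chromosome 5, Sema3d, Sema3a, Sema3e and Sema3c lie in this order within a stretch whose gaps are 537, 423 and 2823 kb. The 3 that were tested were all called towards sacral, beside 30.3% of all genes tested, and Sema3a was too in the fit without the filter. Sema3c was not called under quantile normalisation or under voom with TMM scaling. Whether position plays a part was not tested. Sema3b and Sema3f lie 72 kb apart on chromosome 9, and of the pair Sema3b was called. Plxnb3 and Plxna3 lie 557 kb apart on the X chromosome and differed in opposite directions. The 11 members higher in sacral libraries had a median genomic span of 155988 bases, and 8 of them spanned over 100000 bases. The 9 members higher in lumbar libraries had a median span of 22752 bases, and 1 of them, Sema6a, spanned over 100000 bases. Over all called genes the median spans were 27897 bases for those higher in sacral and 16320 bases for those higher in lumbar libraries.

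The genes most like Sema3d over the 20 libraries, among 17138 genes with a value in each, were Chn2 (Pearson r = 0.89), 6030405A18Rik (r = 0.87) and Hoxc10 (r = 0.85). Those most like Sema3g were Vim (r = 0.95), Wwtr1 (r = 0.94) and Nes (r = 0.94). These coefficients are a description over libraries that share donors, depth and the difference between levels.

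Between the sexes, 0 of the 28 genes were called by limma in lumbar or in sacral libraries, and 0 for an interaction of sex and level. Of all genes tested, 0.0427% were called in lumbar libraries, 0.0368% in sacral libraries and 0% for the interaction. The lowest adjusted p of a member was 0.29 in lumbar and 0.49 in sacral libraries, and 1 for the interaction. At an unadjusted p under 0.05 there were 5 members in lumbar libraries (17.9%, against 11.4% of all genes), 3 in sacral libraries (10.7%, against 8.09%) and 2 for the interaction (7.14%, against 4.1%).

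In sacral libraries Sema3d had values of -0.08, -1.31, -0.28, -0.06 and -0.16 in males and of 0.93, 0.69, 0.26, 1.02 and 0.56 in females. Every female library was above every male library, and of the 28 members 1 had sexes that did not overlap in sacral libraries and 0 in lumbar libraries. Over genes with a value in each of these libraries, 1.56% did not overlap in sacral libraries (0.855% with females higher) and 1.35% in lumbar libraries. The difference, female minus male, was 1.07 ± 0.37 in sacral libraries (unadjusted p = 0.0085, adjusted p = 0.49), with 161 to 423 reads in males and 528 to 761 in females. In lumbar libraries it was 0.03 ± 0.37 (adjusted p = 0.98), and the interaction was -1.04 ± 0.48 (unadjusted p = 0.039, adjusted p = 1). In lumbar libraries Sema3e had values of 1.13, 0.39, 0.89, 0.92 and 0.50 in males and 1.36, 1.99, 1.69, 0.92 and 1.09 in females, and 2 of the female values lay within the male range. In lumbar libraries Sema3e was 0.65 ± 0.20 and Plxnc1 0.69 ± 0.24 higher in females, Plxnd1 was 0.32 ± 0.15 higher, and Sema3b (-0.54 ± 0.25) and Sema6a (-0.40 ± 0.19) had lower values in females, none past the adjusted threshold. In sacral libraries Sema4a (-0.58 ± 0.25) and Sema6a (-0.39 ± 0.19) had lower values in females. Sema5a differed between levels by -0.02 ± 0.36 in males and by -0.70 ± 0.49 in females (mean ± SD over 5 donors each), an interaction of -0.68 ± 0.30 (unadjusted p = 0.035, adjusted p = 1). Fitted alone, the male donors gave 15 called members between the levels (28% of all genes called) and the female donors 14 (22.2%).

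The mean log2 RPKM of 18 glial markers was 5.75 ± 0.39 in lumbar and 4.88 ± 0.45 in sacral libraries, and was higher in the lumbar library of all 10 donors, by 0.57 to 1.35. With this mean as a covariate, 1 of the 28 members was called, Sema6d (-0.64 ± 0.14, adjusted p = 0.022), where 1.31% of all genes were. The difference of Sema3d was then -1.19 ± 0.43 (adjusted p = 0.22), that of Nrp2 -0.60 ± 0.17 (adjusted p = 0.11) and that of Sema4a 0.71 ± 0.29 (adjusted p = 0.30). By contrast Sema3g (-0.18 ± 0.25), Sema3b (-0.06 ± 0.16), Plxnb3 (-0.03 ± 0.27), Plxnb1 (0.01 ± 0.30) and Plxnc1 (0.03 ± 0.23) lay near 0. The sacral genes Plxna2 (-0.343), Plxna4 (-0.263), Sema4d (-0.262) and Sema4f (-0.225) shrank and lost their calls. Of the 28 members, 14 lost their call in the same direction, 8 changed sign, and 6 had the same direction and the same side of the threshold as before. The marker mean differed between the levels in every donor. Its ranges overlapped (5.21 to 6.38 in lumbar and 4.37 to 5.54 in sacral libraries), so the fit separates the covariate from the level only in part. The part of other cells in these differences was not tested.

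**Figure D5:**
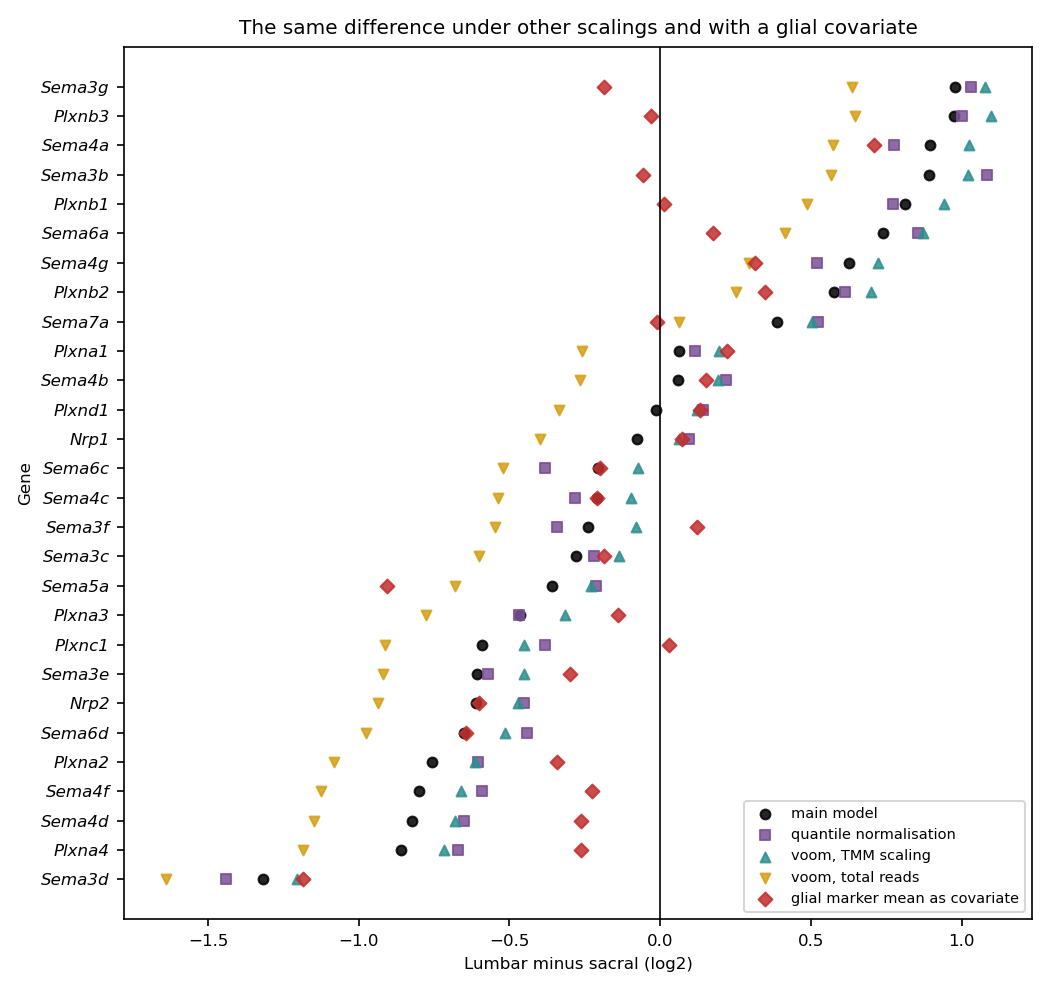
Lumbar minus sacral difference (x axis, log2) of the 28 tested genes (y axis) in the main model, under 3 other scalings, and with the mean of the glial markers as a covariate. Voom with total reads moves all 28 genes towards sacral, quantile normalisation moves genes both ways, and the covariate brings Sema3g, Sema3b, Plxnb3, Plxnb1 and Plxnc1 close to 0 while Sema6d (-0.64), Nrp2 (-0.60) and Sema3d (-1.19) stay near their main values.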

How the data were processed

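Sorted cells gave RNA that was amplified with the Ovation RNA-Seq System v2 and sequenced on a HiSeq2500. The authors aligned reads to mm9 (Subread), kept those that mapped uniquely, counted reads per Ensembl gene (featureCounts) and normalised them with TMM and voom. They deposited log2 RPKM, 1 column for each of 20 libraries. All libraries have a median of 0.93, and an empty cell means no read. Voom with TMM scaling of the recovered reads moved the median difference of all genes by 0.14 from that on the deposited values. Results on both scales are therefore given separately. Reads per gene were worked back from these values. For each of the 28233 genes with a value they came out whole within 0.01 of a read, 27506 at the annotated exon length, among them all 31 members. They were used for depth and for 2 alternatives. Depth speaks only to counting error.

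Genes with a mean above -1 in at least 1 group, over at least 3 values, were tested with limma 3.58.1 (R 4.3.3) on the log2 values. The model fitted 4 group means with donor as a random block (correlation 0.17) and a trend of variance with level. P-values were adjusted by Benjamini-Hochberg over all genes and called at 0.05. A gene with no value in some group dropped out, which left 16304 genes between the levels. Differences are lumbar minus sacral, so that a negative value is higher in sacral libraries, and are given with their SE. Libraries were paired by the animal numbers that both labels of a donor share. Deviations from group means correlated at 0.18 within donors (0.04 to 0.30) and at -0.04 between donors of a sex. The study's methods count as many mice of each sex as there are donor labels, while each label holds 2 animal numbers. The unit behind the p-values is therefore the donor label. Those between levels rest on the spread of libraries within donor labels, and those between sexes on the spread between donor labels as well.

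Members and gene lists were chosen with earlier results of these data known. A member is described by library when it was called between levels with a difference of at least 0.5, was highest or lowest of its family, or had an unadjusted p under 0.05 between sexes. Of the called partners, the 3 largest differences per direction are named, and Vegfc and the collapsin response mediators were added after their values were seen. For the called member with the largest difference in each direction, the 3 genes with the highest Pearson r were named. The tests and the read recovery were checked on simulated data. For the tests, a small set of genes was changed equally in both directions. That check does not cover the choice of scaling where many genes differ. Gene positions come from the NCBIM37 annotation (GENCODE M1). Alternatives were other filters, pseudocounts of 1 and 0.1, quantile normalisation, voom on the recovered reads with TMM or total-read scaling, no block and a fixed block, no trend, the glial covariate, each sex alone and each donor left out.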

Additional observations from a re-analysis of the deposited data

Results flagged for a closer look

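A value was singled out when the gap between the lowest or highest of 5 libraries and its nearest neighbour took up more than 0.71 of the range of its group. Of 123 groups of values, 8 were singled out, where about 6.2 would be by chance (1 in 20). In female lumbar replicate 2, Plxna4 was at 4.233 log2 RPKM beside 2.907 to 2.998 in the other 4 libraries, and Plxna2 was at 3.164 beside 2.372 to 2.489. In male sacral replicate 2, Sema3d was at -1.313 beside -0.281 to -0.065, with 161 reads, and Plxna1 was at 0.63 beside 1.358 to 1.598. Sema3e in female sacral replicate 2 was at 2.089 beside 1.711 to 1.777. Plxna1 in female sacral replicate 4 was at 1.036 beside 1.622 to 1.745. Nrp1 in male lumbar replicate 5 was at 2.357 beside 3.128 to 3.437. Sema3a in male sacral replicate 4 was at -3.45 beside -2.222 to -1.76, with 59 reads. Without female donor 2 or without male donor 2, Plxna4, Plxna2 and Sema3d stayed past the threshold in the same direction. No member had all male donors in one direction and all female donors in the other.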

How the results depend on the processing

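The 20 called members became 17 to 20 when 1 donor was left out, with 10 to 12 higher in sacral and 7 to 9 in lumbar libraries. Sema3c, Sema4g, Sema7a and Plxna3 each lost their call without at least 1 donor. Without male donor 3 Sema3c (-0.25), Sema4g (0.57) and Sema7a (0.37) were lost, and without female donor 1 Sema4g (0.50), Sema7a (0.36) and Plxna3 (-0.35). Sema5a was called without male donor 2 or female donor 3 (-0.43 each). With 1 donor left out, Plxnd1 ranged from -0.08 to 0.062 and was positive without male donor 4 or 5 or female donor 5. Nrp1 ranged from -0.131 to 0.002 and was positive without male donor 5, and Sema4b ranged from -0.013 to 0.091 and was negative without female donor 2. Without the donor block 19 members were called (Sema7a was lost, 0.39, adjusted p = 0.052), and with donor as a fixed block 20, with Sema5a gained and Sema4g lost. The pairing changed no other member's call. Relative to the main model, the median difference of all genes moved by 0.09 (log2) under quantile normalisation, by 0.14 under voom with TMM scaling and by -0.32 under total reads, and single genes moved by other amounts. Of all called genes, 66.5% were higher in sacral libraries, against 52.8%, 46.7% and 86.9% under these scalings. The members higher in sacral were 10, 9 and 18, and those higher in lumbar 9, 9 and 7, with Sema4b in place of Sema4g under quantile normalisation. In the same order, all genes called towards sacral numbered 3432, 3256 and 9517, and those towards lumbar 3063, 3718 and 1433. The genes tested were 16304, 16422 and 16422. Under quantile normalisation Plxnd1 was 0.142 and Nrp1 0.096, under TMM scaling 0.122 and 0.063, and under total reads Sema4b was -0.265 and Plxna1 -0.26, each a change of sign. With the glial covariate the members called fell from 20 to 1 (1 in sacral, 0 in lumbar), the partners from 24 to 0, and all genes from 7436 to 213. Its reversed values were -0.057 for Sema3b, 0.121 for Sema3f, -0.185 for Sema3g, -0.012 for Sema7a, -0.03 for Plxnb3, 0.029 for Plxnc1, 0.133 for Plxnd1 and 0.073 for Nrp1. The cause was not tested. In males alone 7 members were higher in sacral and 4588 genes were called (Nrp1 0.003), and in females alone 3634 genes and 13 partners (Plxnd1 0.043). The 0 calls between sexes held under every alternative that gave that contrast. Of the genes that differed, Sema3a, Sema3d, Sema4a and Sema4g rest on the fewest reads.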
